A study of Populus euphratica with 12 samples.

Results

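The miR160 family was examined in small RNA libraries from heteromorphic leaves of Populus euphratica, a desert poplar whose leaves broaden as the tree matures. All rows named ptc-miR160 followed by a letter were taken, which gave 6 of the 257 listed miRNAs: ptc-miR160a, ptc-miR160b-3p, ptc-miR160e-3p, ptc-miR160e-5p, ptc-miR160g and ptc-miR160h. The names are those of P. trichocarpa miRNAs, to which the authors aligned reads without mismatches. Each library was made from second juvenile leaves, with 3 biological replicates for each of 4 leaf types, 12 libraries in all. Linear (Li) leaves came from trees of 0 to 3 years, lanceolate (La) leaves from trees of 4 to 6 years, ovate (Ov) leaves from trees of 8 to 12 years and broad-ovate (Bo) leaves from trees over 20 years old. Leaf type and tree age therefore cannot be told apart, and no group was treated.

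miR160 is one of the oldest and most conserved plant miRNA families. In Arabidopsis it guides cleavage of the mRNAs of ARF10, ARF16 and ARF17, auxin response factors of the repressor class, and thereby sets how strongly cells respond to auxin. Arabidopsis plants with a miR160-resistant ARF17 have misshapen, serrated leaves. The mature guide strand is cut from the 5p arm of the hairpin precursor, whereas the 3p strand is the partner that is usually degraded. No target mRNA was measured in these libraries.

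Values are RPM (reads scaled by each library's total over the listed miRNAs, called TPM by the authors). The libraries held 199583 (Bo1) to 632114 (Ov1) such reads, so that 1 read was worth 1.58 to 5.01 RPM. Leaf types were compared with limma on log2(RPM + 1), and a difference was called at an adjusted p under 0.05 (Benjamini-Hochberg, over the 216 miRNAs tested). All 6 members had a mean of at least 1 RPM and were tested. Because RNA of leaves as bulk samples was sequenced, fewer cells with a miRNA and less of it per cell cannot be told apart.

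In brief, 3 of the 6 members were higher in Bo than in Li leaves: ptc-miR160a, with a mean 1.99-fold higher, and both arms of ptc-miR160e, with means 3.27-fold (5p) and 3.05-fold (3p) higher. None of the 6 was called lower in Bo. Over all 216 miRNAs tested, 12.5% were called for Bo/Li, and 7.41% were called higher. The median log2 fold change for Bo/Li was 1.23 over the 6 members and 0.09 over all miRNAs tested. The median of the members lies between ptc-miR160a (0.99) and ptc-miR160g (1.46), and ptc-miR160g had only 9 reads in Bo and 4 in Li. The members also include both arms of ptc-miR160e, which come from the same precursor. RLE scaling sets libraries level by their median ratio and not by their totals. With it, the medians were 1.01 over the 6 members and -0.13 over all miRNAs. All called miRNAs then split into 4 higher and 13 lower, against 16 higher and 11 lower as deposited. None of the 6 members passed the adjusted threshold with RLE scaling, although 3 passed an unadjusted P of 0.05, as 3 did with the values as deposited (22.2% of all miRNAs). The calls were therefore close to the threshold. The paragraphs on the single members name the libraries without which each call was lost, and give the log2 fold changes then fitted. Such a fit also has fewer libraries, so a lost call does not by itself mean that the difference came from the library left out.

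**Figure D1:**
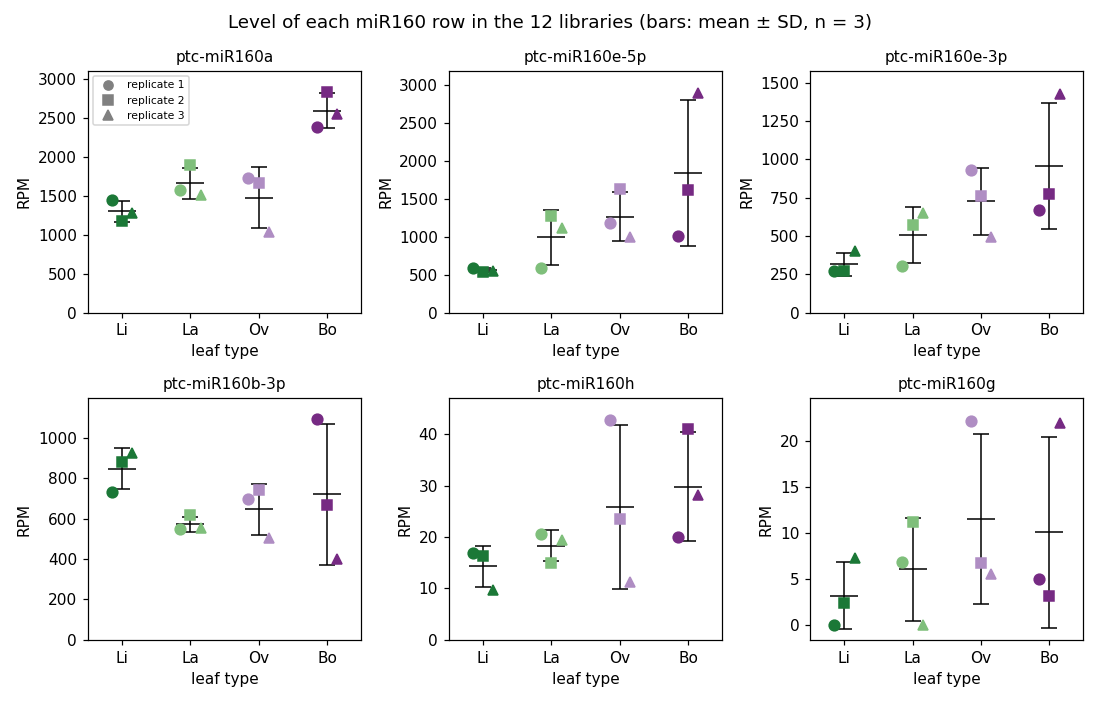
Level of the 6 miR160 members (RPM, linear axes that differ between panels) in the 12 libraries, by leaf type from Li to Bo. Points are libraries, with a symbol for each replicate number, and bars are mean ± SD (n = 3). The 3 Bo points of ptc-miR160a, from 2390 to 2840 RPM, lie above the points of all other leaf types, both miR160e arms reach their highest value in Bo3, and ptc-miR160b-3p has its lowest value in the same library.

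The most abundant member was ptc-miR160a, a row whose name gives no arm. Its level was 1445, 1181 and 1284 RPM in Li1 to Li3 and 1578, 1892 and 1513 RPM in La1 to La3. It was 1735, 1670 and 1030 RPM in Ov1 to Ov3, and 2390, 2840 and 2556 RPM in Bo1 to Bo3. Every Bo library was above all 9 libraries of the other leaf types, and Ov3 was the lowest of the 12.

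The mean of ptc-miR160a was 2595 ± 228 RPM in Bo and 1303 ± 133 RPM in Li (SD, n = 3 each). For Bo/Li the log2 fold change came to 0.99 (SE, the standard error, 0.31, 95% interval 0.34 to 1.65, adjusted p = 0.0486 in limma). Over the alternative settings its adjusted p ran between 0.034 and 0.186. It was no longer under the threshold without any 1 of the 3 Li libraries, the 3 La libraries, the 3 Bo libraries or Ov2, while the log2 fold change was between 0.93 and 1.07 without any 1 of the 12 libraries. With RLE scaling it was 0.73. Between the intermediate leaf types the means were 1661 ± 203 RPM in La and 1478 ± 390 RPM in Ov (SD, n = 3 each), so that the 4 means were not in one order. The Ov/La log2 fold change was -0.20 (95% interval -0.86 to 0.46, adjusted p = 0.95 in limma) and was 0.04 without Ov3. The step Bo/Ov, at 0.85 (95% interval 0.19 to 1.50), passed the unadjusted P of 0.05 only (adjusted p = 0.23 in limma, between 0.17 and 0.45 over the alternatives).

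ptc-miR160e-5p, from the arm that usually gives the guide strand, was the only row named 5p. It was at 591, 540 and 554 RPM in Li1 to Li3 and at 583, 1269 and 1118 RPM in La1 to La3. In Ov1 to Ov3 it was at 1177, 1623 and 991 RPM, and in Bo1 to Bo3 at 1007, 1618 and 2885 RPM. The Li libraries lay within 51 RPM of each other, whereas the Bo libraries were spread widely, with Bo1 close to Ov3. La1 was at the level of the Li libraries, and all Ov and Bo libraries were above all Li libraries.

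Group means of ptc-miR160e-5p increased at each step: Li leaves averaged 562 ± 26.2 RPM, La leaves 990 ± 360, Ov leaves 1264 ± 325 and Bo leaves 1837 ± 958 (SD, n = 3 each). The Bo/Li log2 fold change reached 1.58 (SE 0.43, 95% interval 0.65 to 2.51, adjusted p = 0.033 in limma, and between 0.022 and 0.112 over the alternatives). This call was lost without Li1 (1.61), Li2 (1.55), Li3 (1.57), Bo2 (1.60) or Bo3 (1.18, adjusted p = 0.11 in limma). Ov/Li gave 1.14 (95% interval 0.21 to 2.07), which passed the unadjusted P of 0.05 and not the adjusted threshold (adjusted p = 0.14 in limma, between 0.096 and 0.28 over the alternatives). The single steps La/Li (0.74), Ov/La (0.40) and Bo/Ov (0.44) did not pass the unadjusted threshold. Their intervals were wide, with -0.19 to 1.67 for La/Li, so a difference between neighbouring leaf types is not excluded. The interval of the smallest of these steps reached -0.53 and 1.33.

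The 3p arm of the same precursor, ptc-miR160e-3p, had the same order of means, and fewer reads in every library. It was at 273, 269 and 400.0 RPM in Li1 to Li3 and at 303, 571 and 650 RPM in La1 to La3. In Ov1 to Ov3 it was at 927, 759 and 494 RPM, and in Bo1 to Bo3 at 671, 774 and 1429 RPM. All Bo libraries were above all Li and all La libraries, and all Ov libraries were above all Li libraries.

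For ptc-miR160e-3p, Li leaves averaged 314 ± 74.4 RPM, La leaves 508 ± 182, Ov leaves 727 ± 218 and Bo leaves 958 ± 411 (SD, n = 3 each). The fitted Bo/Li difference on the log2 scale was 1.55 (SE 0.44, 95% interval 0.60 to 2.50, adjusted p = 0.034 in limma, and between 0.031 and 0.142 over the alternatives). This call was lost without Li1 (1.46), Li2 (1.45), Li3 (1.74), Bo2 (1.66) or Bo3 (1.22, adjusted p = 0.13 in limma). Ov/Li gave 1.19 (95% interval 0.23 to 2.14) and passed the unadjusted threshold only (adjusted p = 0.14 in limma, between 0.105 and 0.29 over the alternatives). None of La/Li (0.64), Ov/La (0.54) and Bo/Ov (0.36) passed the unadjusted threshold.

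**Figure D2:**
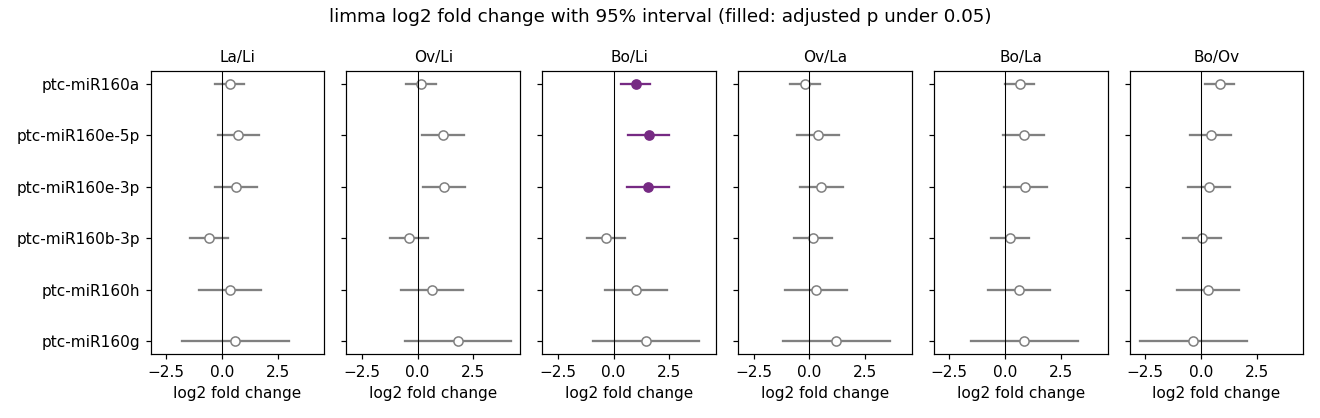
limma log2 fold change (horizontal axis, log2(RPM + 1) scale) of each miR160 member in the 6 pairs of leaf types, with 95% intervals. Filled symbols have an adjusted p under 0.05, and these are ptc-miR160a (0.99), ptc-miR160e-5p (1.58) and ptc-miR160e-3p (1.55) for Bo/Li, whereas the interval of ptc-miR160b-3p spans 0 in every pair.

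ptc-miR160b-3p, the 3p strand of another precursor, was the only well-covered member whose mean was lower in Bo than in Li. It was at 733, 882 and 925 RPM in Li1 to Li3 and at 547, 616 and 553 RPM in La1 to La3. In Ov1 to Ov3 it was at 698, 739 and 502 RPM, and in Bo1 to Bo3 at 1092, 667 and 402 RPM. The highest and the lowest of the 12 values were thus both in Bo leaves, and all La libraries were below all Li libraries. With a mean of 720 ± 348 RPM in Bo against 847 ± 101 RPM in Li (SD, n = 3 each), ptc-miR160b-3p had a Bo/Li log2 fold change of -0.34 (95% interval -1.19 to 0.50, adjusted p = 0.65 in limma) and 0.02 without Bo3. For La/Li it was -0.56 (95% interval -1.41 to 0.29, adjusted p = 0.56 in limma). The sign of Bo/Ov (0.06) turned with RLE scaling (-0.14). An increase in Bo over Li of the size fitted for the miR160e arms lies outside the interval of ptc-miR160b-3p.

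ptc-miR160h and ptc-miR160g were rare. ptc-miR160h had 4 to 27 reads a library and was at 16.9, 16.4 and 9.64 RPM in Li1 to Li3, 20.7, 14.9 and 19.4 RPM in La1 to La3, 42.7, 23.5 and 11.2 RPM in Ov1 to Ov3 and 20.0, 41.1 and 28.3 RPM in Bo1 to Bo3. Its means were in increasing order from Li to Bo, and all Bo libraries were above all Li libraries. The limma log2 fold change Bo/Li was 0.99 (95% interval -0.40 to 2.38, adjusted p = 0.41 in limma), an interval that spans 0. Over the pooled reads, 26 in Bo and 16 in Li, the ratio Bo/Li was 2.22, with a 95% exact interval of 1.15 to 4.42 for counting error alone.

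For ptc-miR160g the 12 libraries together held 37 reads, 14 of them in Ov1 and 7 in Bo3. It had no read in Li1 and La3, which allows a level of up to 10.1 RPM in Li1 and 7.27 RPM in La3 (3 reads, counting error only). The other libraries were between 2.34 RPM (Li2) and 22.1 RPM (Ov1). The pooled reads were 9 in Bo and 4 in Li, a ratio of 3.07 (95% exact interval 0.86 to 13.6, counting error only). For Ov/Li, with 18 and 4 reads, the ratio was 3.98 (interval 1.31 to 16.2), which lies above 1 for counting error, but 14 of the 18 Ov reads were in Ov1. limma, which sets differences against the spread between libraries, gave Ov/Li a log2 fold change of 1.81 (95% interval -0.59 to 4.20, adjusted p = 0.36).

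Across the pairs, members whose groups did not overlap were counted beside the same count over all 216 miRNAs. For Bo/Li, 4 of the 6 members were higher in every Bo library than in every Li library, against 19.0% of all miRNAs. These 4 include both arms of miR160e, which come from the same precursor and are not independent. For Ov/Li there were 2, both arms of miR160e, against 14.4%, and for Bo/La there were 2, ptc-miR160a and ptc-miR160e-3p, against 9.26%. ptc-miR160a alone was higher without overlap for Bo/Ov (11.6% of all miRNAs) and for La/Li (11.6%), and ptc-miR160b-3p alone was lower without overlap for La/Li (7.41%). For Ov/La no member was without overlap, against 7.41% of all miRNAs in either direction.

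At the adjusted threshold limma called 0 members in each pair other than Bo/Li, where the shares of all miRNAs called were 1.85% (La/Li), 4.17% (Ov/Li), 0.00% (Ov/La), 3.70% (Bo/La) and 2.78% (Bo/Ov). At the unadjusted P of 0.05, 0 members passed for La/Li, against 14.8% of all miRNAs. Both miR160e arms were higher at this P for Ov/Li (13.4% of all miRNAs), which makes 2 members. No member passed it for Ov/La (1.85%) or Bo/La (13.0%), 0 in each, and 1, ptc-miR160a, was higher for Bo/Ov (8.33%). The F test over the 4 leaf types together also called 0 members after adjustment (5.09% of all miRNAs). At the unadjusted P it passed 3, ptc-miR160a and both miR160e arms, against 23.1% of all miRNAs, with adjusted p = 0.17 for ptc-miR160a, adjusted p = 0.14 for ptc-miR160e-5p and adjusted p = 0.15 for ptc-miR160e-3p in limma. Means that increased at each step from Li to Bo were found for 3 members, both miR160e arms and ptc-miR160h, against 10.2% of all miRNAs.

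**Figure D3:**
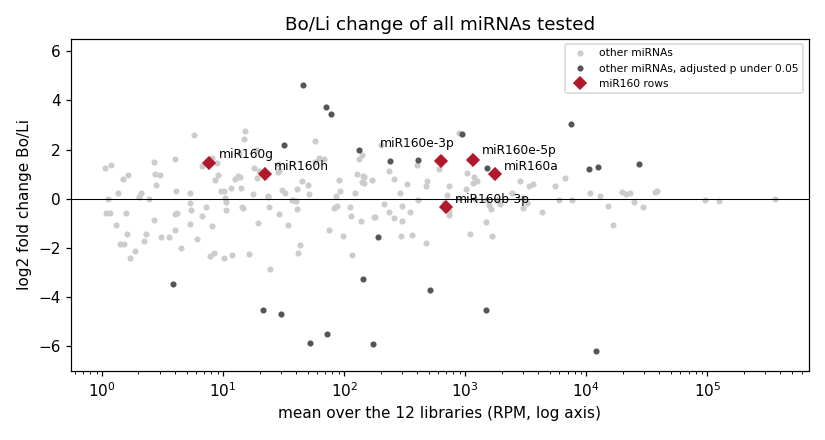
Mean level over the 12 libraries (RPM, log axis) and log2 fold change Bo/Li of the 216 miRNAs tested. Diamonds are the 6 miR160 members, dark points other miRNAs with an adjusted p under 0.05 and light points the rest. 5 of the 6 diamonds lie above 0 and ptc-miR160b-3p below it, at -0.34.

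Both arms of miR160e moved together from library to library. Pearson's r of log2(RPM + 1) over the 12 libraries was 0.93 (Spearman's rho 0.88), and each arm was the miRNA most like the other among the 215 further miRNAs tested. The points share libraries, totals and the differences between leaf types, so this is a description. The ratio of 5p to 3p reads, which does not depend on scaling, had a median of 2.01 and ran between 1.27 (Ov1, 95% exact interval 1.14 to 1.42, counting error only) and 2.22 (La2, 1.83 to 2.71). The ratio averaged 1.85 ± 0.41 over Li libraries, 1.96 ± 0.25 over La libraries, 1.80 ± 0.47 over Ov libraries and 1.87 ± 0.32 over Bo libraries (SD, n = 3 each). The levels of both arms thus differed about as much between leaf types, while their ratio differed more within leaf types than between the means of leaf types. The 3 libraries with the lowest ratios were Ov1, Li3 (1.39) and Bo1 (1.50), each of another leaf type.

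**Figure D4:**
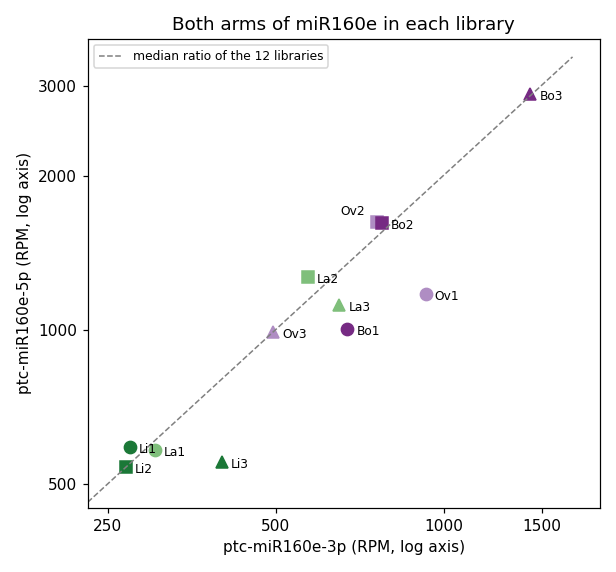
ptc-miR160e-3p (horizontal) and ptc-miR160e-5p (vertical) in each library, in RPM on log axes, with colour for leaf type and symbol for replicate number. The dashed line marks the median ratio of 2.01. The 3 Li libraries and La1 lie at the lower left and Bo3 at the upper right, while Ov1, Li3 and Bo1 lie farthest below the line.

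The pair of 3p strands did not behave alike. The ratio of ptc-miR160e-3p to ptc-miR160b-3p was 0.31 to 0.43 in Li, 0.55 to 1.18 in La, 0.98 to 1.33 in Ov and 0.61 to 3.55 in Bo libraries. All Li libraries were below all other libraries in this ratio, and Bo3 was the highest. ptc-miR160b-3p and ptc-miR160a ran in no common order either, with r of -0.08 over the 12 libraries. The ratio of ptc-miR160b-3p to ptc-miR160a was 0.51 to 0.75 in Li, above the 0.33 to 0.37 of La, the 0.40 to 0.49 of Ov and the 0.16 to 0.46 of Bo libraries. The sources used here do not state how reads fitting more than 1 miR160 precursor were assigned, so the division among members is uncertain.

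Summed over the 6 members, miR160 was at 3059, 2890 and 3181 RPM in Li1 to Li3 and at 3039, 4373 and 3852 RPM in La1 to La3. The sum was 4602, 4822 and 3034 RPM in Ov1 to Ov3, and 5186, 5943 and 7322 RPM in Bo1 to Bo3. All Bo libraries were above all others, and La1 and Ov3 were within the range of the Li libraries. The mean was 6150 ± 1083 RPM in Bo and 3043 ± 146 RPM in Li (SD, n = 3 each), a ratio of 2.02. With RLE scaling the log2 ratio Bo/Li of the sum was 0.77, against 1.01 as deposited. By arm, the 3p rows together were 1.45-fold and the only row named 5p, ptc-miR160e-5p, 3.27-fold higher in Bo than in Li, and the rows without an arm in their name, nearly all ptc-miR160a, 1.99-fold higher. The 3p sum covers ptc-miR160b-3p (0.85-fold) as well as ptc-miR160e-3p (3.05-fold), so the sums do not compare arms of the same precursors. These sums are given without a test.

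The make-up of the family was described without a test, and it differed most clearly in the share of ptc-miR160b-3p in Li leaves. ptc-miR160a held 33.9% to 51.9% of the miR160 reads over the 12 libraries, and ptc-miR160g and ptc-miR160h each held under 1%. The share of ptc-miR160b-3p averaged 27.8% ± 3.45 over Li libraries, 15.5% ± 2.18 over La libraries, 15.7% ± 0.76 over Ov libraries and 12.6% ± 7.88 over Bo libraries (SD, n = 3 each). It was lower in each La, Ov and Bo library than in each Li library. Within Bo it ran between 5.49% in Bo3 (95% Wilson interval 4.64% to 6.49%) and 21.1% in Bo1 (18.7% to 23.7%, counting error only). A share also depends on the levels of the other members. Bo1, with a share below each Li library, had the highest level of ptc-miR160b-3p of the 12 libraries (1092 RPM). The share of ptc-miR160e-5p averaged 18.5% ± 0.96 over Li libraries, 25.7% ± 5.67 over La libraries, 30.6% ± 4.41 over Ov libraries and 28.7% ± 10.1 over Bo libraries (SD, n = 3 each). In La1 the share of ptc-miR160e-5p was 19.2%, within the range of the Li libraries. Of the Bo libraries it was lowest in Bo1 (19.4%) and highest in Bo3 (39.4%). Bo1 was also the library with the fewest reads. The part of depth in this was not tested.

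**Figure D5:**
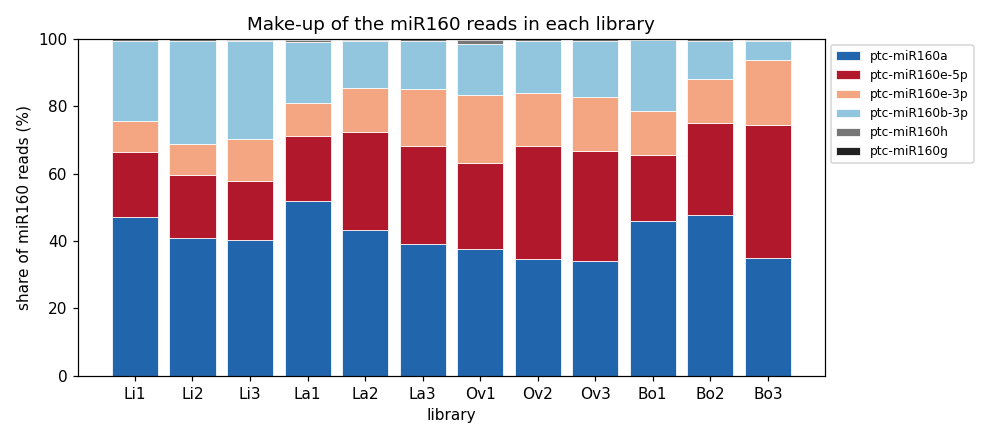
Share of each member in the miR160 reads (vertical axis, percent) of each library, from Li1 to Bo3. The share of ptc-miR160b-3p is 24.0% to 30.5% in the Li libraries and is 5.49% in Bo3, where ptc-miR160e-5p holds 39.4%.

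For the 4 well-covered members the spread between replicates was mostly larger than counting error. The coefficient of variation of ptc-miR160e-5p was 52.2% in Bo, where counting alone gives 4.29%, but 4.66% in Li, where counting gives 6.87%. For ptc-miR160a it was between 8.77% (Bo) and 26.4% (Ov), against counting errors of 3.70% to 4.52%. For ptc-miR160g counting error alone was 40.8% to 86.6%.

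Other miRNAs of the auxin response were set beside the family: 5 rows of miR167, which targets ARF6 and ARF8 in Arabidopsis, 2 of miR390, which starts the TAS3 small RNAs against ARF2, ARF3 and ARF4, and 2 of miR393, which targets the TIR1 and AFB auxin receptors. None of these 9 rows was called in any of the 6 pairs by limma after adjustment. At the unadjusted P, 1 was higher for La/Li (8.33% of all miRNAs) and 2 were lower (6.48%), and 1 was lower for Ov/Li (9.72%). For Bo/La 2 were higher (6.02% of all miRNAs), for Bo/Ov also 2 (8.33%), and 0 passed for Bo/Li and Ov/La. With RLE scaling, 0 were higher for La/Li (15 of all 215 miRNAs), 1 for Bo/La (9 of 215) and 0 for Bo/Ov (9 of 215). The counts of lower rows stayed the same. Their median log2 fold change for Bo/Li was -0.05, against 1.23 for the 6 miR160 members and 0.09 for all miRNAs. The miR167 rows went both ways for Bo/Li. ptc-miR167f-3p was at 1.77, above the value of every miR160 member, and ptc-miR167a was at 0.60. ptc-miR167e (-0.53), ptc-miR167f-5p (-1.53) and ptc-miR167h-5p (-0.45) were below 0.

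ptc-miR390a, the most abundant of the miR390 rows, averaged 12779 ± 3160 RPM over Li libraries, 6815 ± 1753 over La, 8775 ± 3184 over Ov and 14547 ± 474 over Bo libraries (SD, n = 3 each). Its level was therefore lowest in La, an order unlike that of the miR160e arms. The log2 fold change Bo/La was 1.13 (95% interval 0.45 to 1.81, adjusted p = 0.065 in limma), the closest of the 9 rows to the threshold. ptc-miR167e, the highest of miR167, was at 3168 ± 1202 RPM in Bo and 4531 ± 1334 RPM in Li (SD, n = 3 each), a log2 fold change of -0.53 (95% interval -1.48 to 0.42). ptc-miR393a-5p, the higher of the miR393 rows, was at 43.6 ± 21.5 RPM in Bo and 34.9 ± 14.0 RPM in Li (SD, n = 3 each), a log2 fold change of 0.23 (95% interval -1.26 to 1.72).

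Outside the family, the 3 miRNAs whose log2(RPM + 1) over the 12 libraries ran most like that of ptc-miR160a were chosen among 210. They were the predicted star sequence NW_011499986.1_17983* (r = 0.82), ptc-miR2111a (r = 0.82) and the predicted miRNA NW_011499846.1_779 (r = 0.78). The precursor of the first lies on the minus strand of scaffold NW_011499986.1 from 139308 to 139384, and that of the third on the plus strand of scaffold NW_011499846.1 from 5387605 to 5387691 (PopEup_1.0). ptc-miR2111a, of a family known in Arabidopsis for its response to phosphate, was at 361, 417 and 311 RPM in Bo1 to Bo3, against 155, 224 and 251 RPM in Li1 to Li3. Its Bo and Li values did not overlap, and the limma log2 fold change of 0.80 was not called (adjusted p = 0.37). NW_011499846.1_779 was at 531, 600.3 and 841 RPM in Bo1 to Bo3, against 206, 262 and 190.4 RPM in Li1 to Li3, and was called for Bo/Li (log2 fold change 1.56, adjusted p = 0.033 in limma). For NW_011499986.1_17983* the Bo/Li log2 fold change was 0.90 and was not called (adjusted p = 0.26 in limma). The libraries, their totals and the difference between leaf types are shared by all these points. Because the 3 miRNAs were chosen for running like ptc-miR160a, which was highest in Bo, their higher Bo values are no further likeness.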

How the data were processed

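Small RNA libraries of 12 samples (Li, La, Ov and Bo leaves, 3 biological replicates each) were analysed. Per the study's methods, reads were aligned by the authors to miRBase entries with no mismatch allowed, and miRDeep2 predicted further miRNAs. The sources used here do not give its version or how multiply matching reads were counted. The authors deposited RPM values (named TPM by them) for 257 miRNAs in each sample. Dividing a sample's 257 values by the smallest above 0 gave whole numbers within 0.001, so that smallest value was taken as 1 read. These reads were used for depth, intervals and limits only, which cover counting error alone.

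Leaf types were compared with limma 3.58.1 under R 4.3.3, with a variance trend, on log2(RPM + 1), which understates changes at a few reads. All 12 samples were in one fit of 4 group means, with 2-sided P values, restricted to the 216 miRNAs averaging 1 RPM or more. The step was tested on data simulated with changes larger than the called miR160 differences, so it does not cover differences of their size. Alternatives were RLE scaling, other pseudocounts and filters, a total without the most abundant miRNA, a replicate block, fits restricted to one pair, the unadjusted P and leaving out each library. Sums, ratios and correlations were computed with pandas 2.3.3, numpy 2.4.6 and scipy 1.17.1 under Python 3.11.15, and figures with matplotlib 3.10.9. Named miRNAs were the 6 members, of each other auxin family the row with the highest mean and any called row, and the 3 miRNAs most correlated with the most abundant member. The members and lists were chosen with earlier results of these data known. ptc-miR160a and the other members carry no deposited precursor position.

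No 2 libraries held the same counts within sampling noise (chi-square of at least 42.4 per degree of freedom). After subtracting group means, same-numbered La and Ov samples correlated at 0.25, 0.52 and 0.50. The labels give replicate numbers and no pairing, and whether the numbers pair these samples was not tested. In the other pairs not all 3 correlations were over 0.1.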

Additional observations from a re-analysis of the deposited data

How the results depend on the processing

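Of the 36 log2 fold changes of members in the 6 pairs, 24 kept their direction and their side of the adjusted threshold under all alternatives other than the unadjusted P, 9 changed direction and 3 lost the call. The 3 calls, for Bo/Li, fell to 0 with RLE scaling, where the log2 ratio of the miR160 sum was 0.77, and to between 0 and 3 without 1 library. The cause was not tested. With only the 6 samples of the pair and the replicate block 1 remained, and the replicate block over all samples left 3 and changed no other count of members called. For Ov/La, where same-numbered samples correlated most, 0 were called with and without the replicate block. Same-numbered Li and Bo samples share only a number. Counts at the unadjusted P were 2 for Ov/Li and 1 for Bo/Ov. None of the 9 differences that changed direction had been called. ptc-miR160b-3p Bo/Ov was -0.14 with RLE scaling. Without 1 library, ptc-miR160b-3p ranged from -0.70 to 0.019 (without Bo3) for Bo/Li, from -0.14 to 0.58 for Bo/La and from -0.30 to 0.42 for Bo/Ov. ptc-miR160a ranged from -0.33 to 0.043 (without Ov3) for Ov/La. ptc-miR160h ranged from -0.15 to 0.77 for Ov/La and from -0.15 to 0.78 for Bo/Ov. ptc-miR160g ranged from -0.19 to 1.70 for La/Li, from -0.24 to 1.57 for Bo/La and from -1.08 to 0.22 for Bo/Ov. The strict order of means held for both miR160e arms and ptc-miR160h with medians, log2 means and RLE scaling. The medians of ptc-miR160a were also in rising order. This order was not checked without single libraries. Besides Bo3, the Bo libraries of ptc-miR160e-3p were at 671 and 774 RPM, against an Ov mean of 727 RPM. For ptc-miR160h, the Bo libraries besides Bo2 were at 20.0 and 28.3 RPM, against an Ov mean of 25.8 RPM. The last step of their order therefore rests on 1 Bo library each. ptc-miR160g and ptc-miR160h rest on few reads, and their replicates also differ. The other 4 members are limited mainly by the spread of 3 replicates.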
